A study of Mus musculus with 2 samples.

Results

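Dysferlin, myoferlin, MG53, 3 caveolins and 4 annexins were examined in cultures of the mouse muscle line C2C12 that had received exosomes of pancreatic cancer cells or of pancreatic duct cells. These 10 genes (Dysf, Myof, Trim72, Cav1, Cav2, Cav3, Anxa1, Anxa2, Anxa5 and Anxa6) act in caveolae or in the resealing of torn muscle membrane, and were chosen by name. All array probes annotated to them were taken, which gave 22 of the 56605 distinct probes and 31 spots per array. All 10 genes were measured, meaning that the brightest probe of the gene was well above background on both arrays. They were 10 of 16989 such genes.

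C2C12 is a myoblast line that forms myotubes in low-serum medium. The growth protocol of both samples describes such myotubes, while their other labels name C2C12 cells only. One culture was given 4 µg of exosomes from a KPC line (KPC-exo), derived from a pancreatic tumour of mice carrying KrasLSL-G12D/+, Trp53LSL-R172H/+ and Pdx1-Cre, in which the Pdx1 promoter directs Cre to the pancreas. The other culture was given exosomes of the mouse pancreatic ductal epithelial line MPDC (MPDC-exo), at a dose not given in the sources used here. RNA was taken after 24 h and 1 array was hybridised per group, so that each difference below lies between 2 cultures, has no replicate check and carries no p-value. A culture without exosomes was not analysed here.

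A muscle fibre that tears lets calcium in, and the calcium draws vesicles and calcium-binding proteins to the wound. Dysferlin, whose loss causes a limb-girdle muscular dystrophy in humans, anchors and fuses vesicles there through its C2 domains, and its relative myoferlin acts in the fusion of myoblasts. MG53, the product of Trim72, is a muscle-enriched tripartite-motif protein that gathers vesicles at the injury. Caveolins form the flask-shaped pits of the surface membrane, caveolin-3 being the muscle form, and annexins bind membrane phospholipids in the presence of calcium.

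Each probe is a 60-base oligonucleotide, and 4 of the 22 crossed an exon boundary, since their span in the mm9 genome exceeded their own length. These 4 are printed below, 5′ to 3′, because a probe of this kind reads spliced mRNA. A further Cav1 probe is printed because it lies across the end of the caveolin-1 reading frame, whose stop codon is in capitals.
Dysf, chr6:84138232-84139678, plus strand: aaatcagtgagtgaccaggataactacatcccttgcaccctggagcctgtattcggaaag
Cav1, chr6:17258018-17289144, plus strand: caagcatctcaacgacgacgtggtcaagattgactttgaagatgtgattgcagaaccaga
Cav1, chr6:17289414-17289473, plus strand: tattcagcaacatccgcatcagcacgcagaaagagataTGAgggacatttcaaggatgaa
Anxa1, chr19:20448248-20449761, minus strand: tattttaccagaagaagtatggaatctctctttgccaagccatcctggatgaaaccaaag
Anxa2, chr9:69330846-69331620, plus strand: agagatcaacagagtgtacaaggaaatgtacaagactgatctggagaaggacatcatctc

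The differences of the members between the cultures are given relative to the bulk of signal on each array. No member was 1.5-fold apart in either direction, against a background of 3.73% of all measured genes that were at least 1.5-fold higher with KPC-exo and 3.7% that were at least 1.5-fold lower. Among the 12742 genes above the 25th percentile of signal, where 9 of the 10 members lay, these shares were 1.67% and 2.41%, so a count of 0 among 10 lies near the background. None was 2-fold apart either, beside 0.73% of measured genes higher and 1.19% lower by that much. At a smaller threshold of 0.32 on the log2 scale Cav3 was higher and Cav1 lower, 1 gene each way, beside 15.5% of measured genes higher and 10.1% lower. Cav3 had the highest log2 difference of the members, 0.50, and Cav1 the lowest, -0.40. The median over the 10 members was -0.01, beside 0.06 over all measured genes, 3 members lying above that value and 7 below it. This split was not stable, with 5 on each side after normexp background correction, and 7 above and 3 below when dim probes were kept and the all-gene median was -0.15. Between them the remaining 8 ran from 0.14 in Anxa6 to -0.25 in Anxa2.

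The scale and the errors are as follows. Array signals are spot brightness in scanner units, and a level is the log2 signal minus the 75th percentile of its array, which was 639 units on the KPC-exo array and 380 units on the MPDC-exo array. A log2 difference is the KPC-exo level minus the MPDC-exo level, so a positive value means higher with KPC-exo. The error given with it is computed from the signal errors in the scanner files, which rest on a preset 10% multiplicative term and amount to 0.20 for bright probes. It covers 1 spot reading and no variation between cultures. Different probes bind with different strength, so a level is compared between arrays at 1 probe and no order of expression is read from different probes. Where marker genes are named by brightness or their signals are summed, brighter probes weigh more. A summed signal takes the brightest probe of each gene on each array separately, so the probe can differ between the arrays. It includes the genes of a list that were not detected. In such bulk RNA fewer expressing cells and less RNA per cell cannot be told apart.

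Of the 22 probes, 15 were well above background, and so detected, on both arrays, 2 on 1 array only and 5 on neither. In the plot of levels the filled pairs of Dysf, Myof and Anxa5 lie on top of each other, and the Cav3 pair is the widest among brightest probes.

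**Figure D1:**
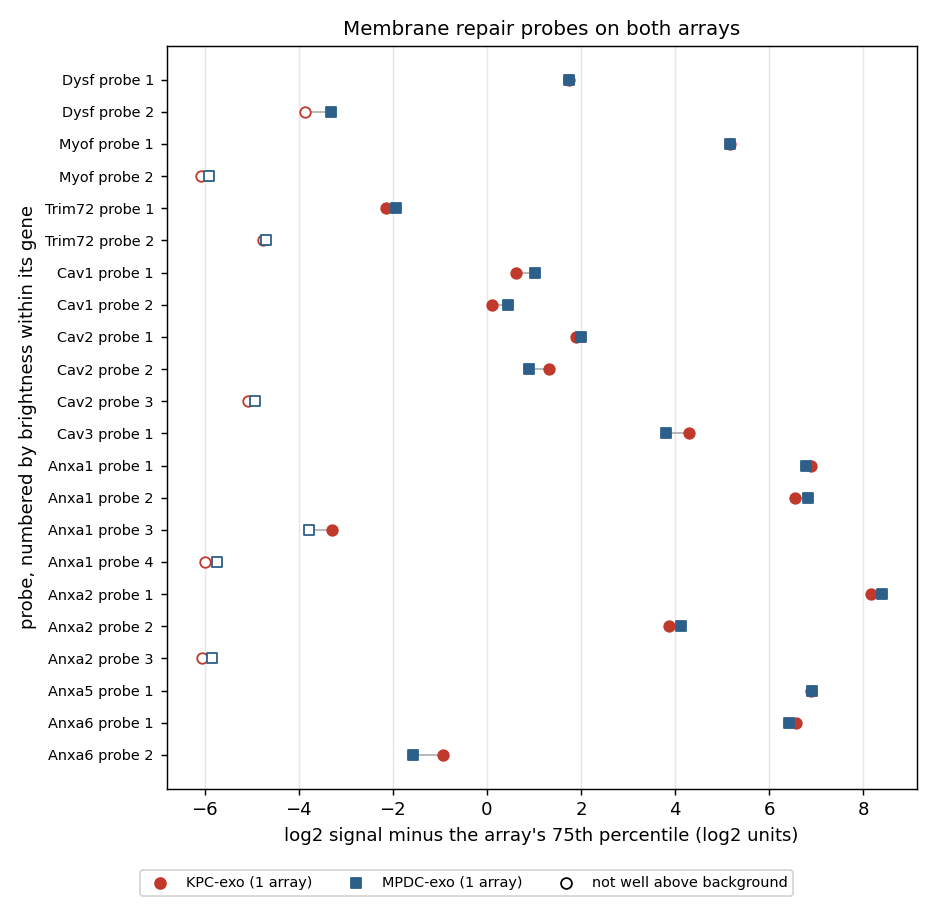
Log2 level of every probe of the 10 genes (x axis, log2 units above the 75th percentile of the array) on the KPC-exo array (circles) and the MPDC-exo array (squares), with open symbols where the probe was not well above background. Cav3 stands at 4.30 with KPC-exo and 3.80 with MPDC-exo, whereas the Myof symbols at 5.18 and 5.17 coincide.

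The measured ferlin members differed by less than the scanner error between the cultures. At the brighter Dysf probe (chr6:84160977-84161036, mm9) the signal was 2142 units on the KPC-exo array and 1269 units on the MPDC-exo array. Once each array was scaled, these became levels of 1.75 with KPC-exo and 1.74 with MPDC-exo, a log2 difference of 0.01 with an error of 0.20. The difference was thus far inside the error of a single spot. The exon-crossing Dysf probe printed above was dim, with 43.9 units on the KPC-exo array, where it was not well above background, and 38.5 units on the MPDC-exo array, where it was. For a probe detected on 1 array, its level there is set against a floor for the array that missed it, which is the lowest level detected on that array, or the level of the probe itself where that is higher. This bound leaves out the error of the reading on the detecting array, so it is not a strict minimum. By it the exon-crossing probe was at least 1.37-fold lower with KPC-exo, while its own log2 difference of -0.56 had an error of 0.44.

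Myof had 23112 units on the KPC-exo array and 13715 units on the MPDC-exo array at chr19:37974040-37974099. The levels were 5.18 with KPC-exo and 5.17 with MPDC-exo, and the log2 difference was 0.01 with an error of 0.20. Its other probe, made from a thymus cDNA clone, stayed below detection on both arrays. Otof, the gene of otoferlin, the ferlin of hair cell synapses, was the only measured gene of the 4 other ferlin genes, and had a log2 difference of -0.16 at its brighter probe and -0.22 at the other. Neither array detected Fer1l4, Fer1l5 or Fer1l6 well above background.

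Trim72 was dim, and its difference cannot be told from 0 at this signal. Its measured probe (chr7:135154397-135154456) gave 145 units on the KPC-exo array and 99.5 units on the MPDC-exo array. The levels of -2.14 with KPC-exo and -1.93 with MPDC-exo differed by -0.21, with an error of 0.24, so the difference was smaller than the error. Another probe of the same transcript, the richest in G and C of the 22, was detected on neither array.

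The caveolins held both the highest and the lowest difference among the members' brightest probes. Caveolin-3, which is restricted to muscle and binds dysferlin, is encoded by Cav3, represented by 1 probe at chr6:112422739-112422798. It gave 12553 units on the KPC-exo array and 5302 units on the MPDC-exo array. The levels were 4.30 and 3.80 in the same order, a log2 difference of 0.50 with an error of 0.20, or 1.41-fold higher. That is 2.43 times the scanner error, and 94.2% of all measured genes had a lower difference. No second probe was present to repeat the reading.

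Caveolin-1 builds caveolae in most cells other than mature muscle. At the Cav1 probe over the stop codon the signal was 982 units on the KPC-exo array and 771 units on the MPDC-exo array, with levels of 0.62 with KPC-exo and 1.02 with MPDC-exo. The log2 difference of -0.40 had an error of 0.20, and the gene was 1.32-fold lower. At the exon-crossing Cav1 probe, 692 units with KPC-exo and 518 units with MPDC-exo gave levels of 0.12 and 0.45 and a log2 difference of -0.33, with an error of 0.21. Both Cav1 probes therefore read lower with KPC-exo after scaling, and only 7.15% of measured genes had a lower difference than the brighter one.

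Caveolin-2 depends on caveolin-1 to reach the cell surface, and in RefSeq (GRCm38.p6) its gene Cav2 lies next to Cav1, 17205 bases away. Its 2 measured probes disagreed in sign. The brighter (chr6:17238947-17239005) gave 2380 units on the KPC-exo array and 1517 units on the MPDC-exo array, a log2 difference of -0.10 with an error of 0.20. At the other (chr6:17238393-17238452) 1591 units with KPC-exo and 711 units with MPDC-exo gave a log2 difference of 0.41 with an error of 0.20. Both are assigned to the same transcript in the files. The gap between them, 0.51, was wider than the largest gap within 67.2% of the 5736 genes with at least 2 measured probes. Genes with more than 2 probes are among these and tend to have wider gaps. As the signs disagreed, no direction can be given for Cav2. The remaining probe, specific to transcript variant 2, was detected on neither array.

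Marker genes give the state of the cultures. All 12 myotube markers were measured, and their median log2 difference was 0.04. The markers with the brightest probes were Mylpf, a fast myosin light chain, whose probes disagreed in sign at 0.24 and -0.17, and Acta1, skeletal actin, at -0.12. The summed signal of the list, to which the brighter Mylpf probe contributed, was 621 times the 75th percentile with KPC-exo and 587 times with MPDC-exo. Of 6 markers of undifferentiated or dividing myoblasts, 5 were measured, with a median of -0.33. The summed signal over all 6 was 14.0 with KPC-exo and 17.3 with MPDC-exo. Of the genes of dividing cells, Mki67 had -0.33 and Ccnb1 -0.41, whereas Cdk1 was higher at 0.11 and the Top2a probes ran from -0.69 to 0.09. Pax7, a gene of muscle stem cells, had -0.28, and Myf5 was not detected. The part of these markers in the Cav1 and Cav3 differences was not tested.

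Myogenic transcription factors bind E-boxes, and the Cav3 promoter is printed as an example. RefSeq (GRCm38.p6) gave start sites for 9 of the 10 members in 11 windows, Anxa6 having none. The letters CANNTG, searched on both strands over the 250 bases before the start, were present in 6 of the 11 windows and in 66.2% of 32851 windows of all genes. Trim72 had 3 such matches, and Cav2 and Cav3 had 2 each. A link between these letters and the differences was not tested. The form CAGCTG, which is also counted in CANNTG, was found in 1 of the 11, that of Cav3, and in 13.0% of all. The TATA box letters TATAAA were present in 3 of the 11 and in 12.4% of all, and GGGCGG, the core of GC boxes, in 4 and in 32.7%, also on both strands. In the Cav3 window the matches begin at -174 and -106 and are in capitals.
Cav3 promoter, chr6:112459255-112459504 (GRCm38.p6), plus strand: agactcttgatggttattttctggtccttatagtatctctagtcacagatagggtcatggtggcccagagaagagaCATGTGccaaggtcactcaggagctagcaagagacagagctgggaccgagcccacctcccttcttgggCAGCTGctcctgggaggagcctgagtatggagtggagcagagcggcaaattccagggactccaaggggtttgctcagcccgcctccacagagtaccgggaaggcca

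**Figure D2:**
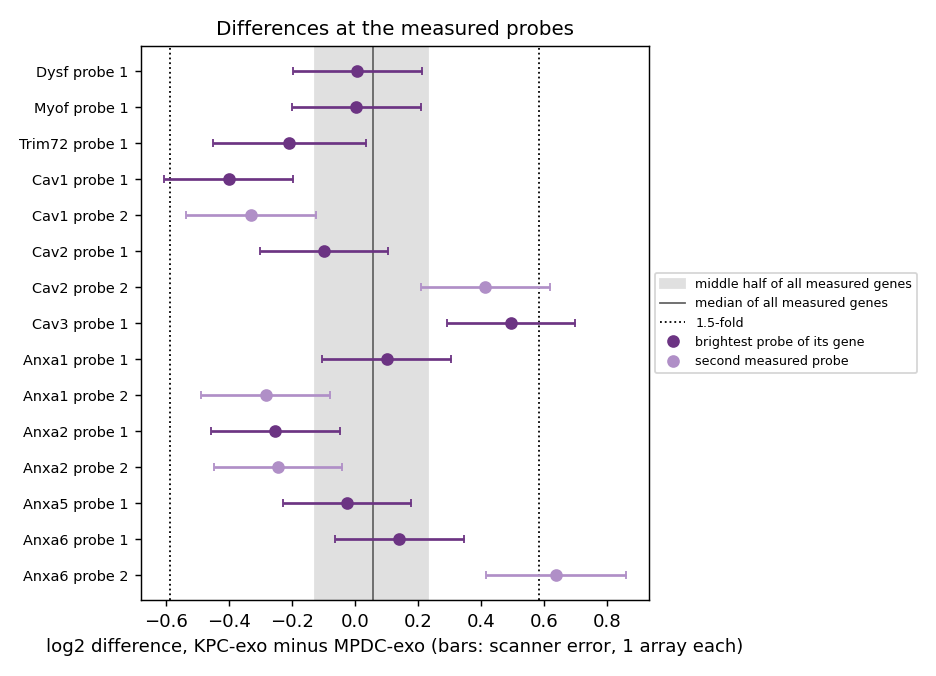
Log2 difference, KPC-exo minus MPDC-exo, at the 15 measured probes (x axis), with bars for the scanner error of 1 array per group, a grey band for the interquartile range of all measured genes and dotted lines at 1.5-fold. The second Anxa6 probe, at 0.64, is the only point past a dotted line, and the 2 probes of Cav2 and of Anxa1 fall on opposite sides of 0.

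Of the annexins, Anxa2 was lower at both measured probes. Annexin A2 bridges membranes together with S100A10 and binds dysferlin in muscle. At chr9:69339532-69339591 it gave 182515 units on the KPC-exo array and 129423 units on the MPDC-exo array, with levels of 8.16 with KPC-exo and 8.41 with MPDC-exo. At the exon-crossing probe the signals were 9385 units with KPC-exo and 6619 units with MPDC-exo. The log2 differences were -0.25 and -0.24, each with an error of 0.20. These probes were closer to each other than in 98.7% of genes with several, counted as for Cav2. The first of them came to -0.06 with quantile normalization and to -0.01 in the authors' value table, while the exon-crossing probe came to -0.30 in both. The scanner software flagged the background of the exon-crossing spot on both arrays, so that probe has no value where such spots are left out. The remaining Anxa2 probe, from an Ensembl transcript, was detected on neither array.

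Annexin A1, another partner of dysferlin and an anti-inflammatory protein, had 4 probes, of which 1 was spotted 10 times on each array. That probe (chr19:20447938-20447997) ranged from 57831 to 61868 units on the KPC-exo array, with a median of 60044, and from 42254 to 44806 units on the MPDC-exo array, with a median of 43414. Its levels were 6.55 ± 0.04 with KPC-exo and 6.83 ± 0.03 with MPDC-exo (SD, n = 10 spots of 1 array each). After scaling the log2 difference was -0.28, whereas before scaling the spots were brighter on the KPC-exo array. The spots repeat 1 RNA sample on 1 array, so they are no replicates of the treatment.

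**Figure D3:**
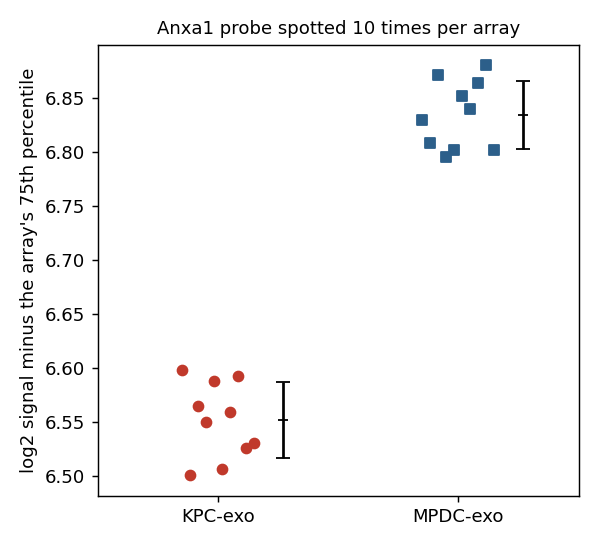
Level of the Anxa1 probe spotted 10 times on each array (y axis, log2 units above the 75th percentile), with the mean and SD of the 10 spots beside the points. The KPC-exo spots lie between 6.50 and 6.60 and the MPDC-exo spots between 6.80 and 6.88.

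The exon-crossing Anxa1 probe printed above read otherwise. It gave 75517 units on the KPC-exo array and 41934 units on the MPDC-exo array, with levels of 6.89 with KPC-exo and 6.78 with MPDC-exo and a log2 difference of 0.10, with an error of 0.20. The log2 differences of these 2 Anxa1 probes lay 0.38 apart, beside a pooled SD of 0.36 between measured probes of a gene. The gap was wider than that of 54.1% of genes with several probes, counted as for Cav2. Another Anxa1 probe, from a cDNA clone, had 65.5 units on the KPC-exo array, where it was well above background, and 27.6 units on the MPDC-exo array, where it was not, and was at least 1.251-fold higher by the bound described for Dysf. That reading was lost with normexp background correction, where its log2 difference was -0.01, against 0.50 without it. The last, also from a clone, was detected on neither array, and no direction can be given for Anxa1.

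Annexin A5, which assembles into a lattice on exposed phosphatidylserine, differed by less than the scanner error. Anxa5 had 76036 units on the KPC-exo array and 46058 units on the MPDC-exo array at chr3:36348065-36348124. The levels were 6.90 with KPC-exo and 6.92 with MPDC-exo, and the log2 difference was -0.02 with an error of 0.20.

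Annexin A6 forms a cap over the wound in mouse muscle fibres. The brighter Anxa6 probe (chr11:54792616-54792675) gave 60822 units on the KPC-exo array and 32831 units on the MPDC-exo array, a log2 difference of 0.14 with an error of 0.20. A dimmer probe (chr11:54804707-54804766) gave 334 units on the KPC-exo array and 128 units on the MPDC-exo array. Its levels were -0.94 with KPC-exo and -1.58 with MPDC-exo, and the log2 difference of 0.64, with an error of 0.22, was 1.56-fold. It was the 1 measured probe of the members' 15 past 1.5-fold, beside a background of 4.65% of measured probes at least 1.5-fold higher and 5.41% at least 1.5-fold lower. The files assign it to an Ensembl transcript and to cDNA clones, and the brighter one to the RefSeq transcripts of Anxa6. With normexp background correction its log2 difference was 0.43, under 1.5-fold.

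The proteins that work with these 10 were followed through 47 genes in 5 lists, of which 40 were measured. None of the 40 was 1.5-fold higher or lower at its brightest probe, beside 7.43% of all measured genes past 1.5-fold in either direction, or 4.08% of those above the 25th percentile of signal. Over all 78 measured probes of these genes, 4 were at least 1.5-fold higher and 5 at least 1.5-fold lower, in 9 different genes, beside 4.65% and 5.41% of all measured probes. The most distant were a dimmer probe of Parvb, the gene of the dysferlin-binding protein beta-parvin, at 1.42, where its brightest probe had -0.56, and a dimmer probe of Myh9, a non-muscle myosin heavy chain, at -1.21, where its brightest had -0.22. Both were named after their values were seen. The median log2 difference of the 40 genes was 0.03. All 11 genes of the caveolar coat were measured, with a median of 0.02. Ehd1, a membrane-shaping ATPase, had the lowest value there, -0.31, with 27724 units on the KPC-exo array and 20487 units on the MPDC-exo array. Cavin3, a coat protein of caveolae, had 0.25 and Pacsin2, a membrane-bending protein, -0.14.

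The other annexins were measured in 5 of 8 genes, with a median of -0.07. Anxa8 had 0.10 at its 1 probe, and in the other 4 genes the probes disagreed in sign. Anxa10, Anxa11 and Anxa13 were detected on neither array. Binding partners and calpains, all 13 measured, had a median of 0.06. Capn3, the muscle calpain mutated in a human limb-girdle dystrophy, had 0.18, and S100a11, a partner of annexins A1 and A2, had 0.11. S100a6 had -0.18, but its sign turned to 0.12 with quantile normalization and 0.13 in the authors' value table. S100a10, the light chain of annexin A2, named after its value was seen, had 0.09 at its brighter probe and 0.31 at the other, against -0.25 for Anxa2.

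Vesicle fusion and ESCRT genes, 10 of 11 measured, had a median of 0.10. Pdcd6, which encodes the calcium sensor ALG-2 that recruits ESCRT proteins to wounds, had 33936 units on the KPC-exo array and 16189 units on the MPDC-exo array, a log2 difference of 0.32. Vps4a, the ATPase that disassembles ESCRT filaments, had 0.23 and Vamp7, a vesicle fusion protein, 0.13. Syt7, a calcium sensor of lysosome fusion, was detected on neither array.

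**Figure D4:**
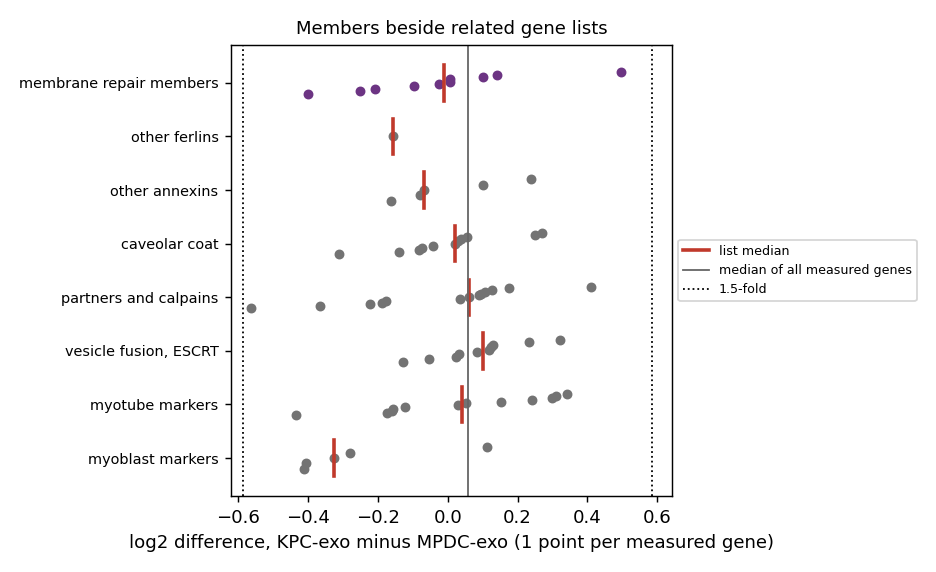
Log2 difference, KPC-exo minus MPDC-exo (x axis), at the brightest probe of each measured gene in the membrane repair members, 5 related lists and the muscle markers, with red bars for list medians and dotted lines at 1.5-fold. The members' median of -0.01 lies below the 0.06 of all genes, and no brightest probe in these rows passes 1.5-fold.

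The arrays shared a slide and a scan. Markers of other cell types were measured for most of the macrophage list and for fewer genes of the other lists. Ductal epithelial markers were measured in 2 of 6 genes, Sox9 and Krt19, while Epcam, Krt7, Cdh1 and Cldn4 were detected on neither. Adipocyte markers were measured in 2 of 6 genes (Pparg and Fabp4), endothelial markers in 1 of 5 (Kdr) and macrophage markers in 4 of 5. In the last list Lyz2 had a log2 difference of 0.22, Ptprc 0.29 and Cd68 0.63, while Csf1r had -0.87 at its brightest probe. Thus 1 gene each way lay past 1.5-fold, beside 3.73% of all measured genes higher and 3.7% lower by that much. The summed signals of these lists, in multiples of the 75th percentile, include the genes that were not detected. With KPC-exo they were 1.45 for ductal, 3.28 for adipocyte, 0.41 for endothelial and 5.82 for macrophage markers. With MPDC-exo they were 1.55, 3.002, 0.41 and 5.34 in the same order. All 6 common reference genes lay below the median of all genes, with a median of -0.21. That value came to -0.05 with quantile normalization, -0.06 with cyclic loess normalization and -0.04 in the authors' value table.

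Under other processing Cav3 kept a positive difference. Cav1 kept a negative one except with spike-in centring, where Cav1 had 0.601. Leaving aside spike-in centring, Cav3 ran from 0.44 to 0.55 and Cav1 from -0.45 to -0.36 over 11 alternatives. Dysf ran from -0.06 to 0.07 over 10, and Myof from -0.05 to 0.10 over 11, on both sides of 0. Keeping dim probes or filtering them more strictly left these genes at the values given above. Averaging the measured probes did the same for all of them but Cav1, so these settings are no separate check of Cav3. Centring on the median or on probes detected on both arrays changed Cav3 only through the value subtracted from each array. The same holds for keeping flagged spots and for leaving out background-flagged ones.

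**Figure D5:**
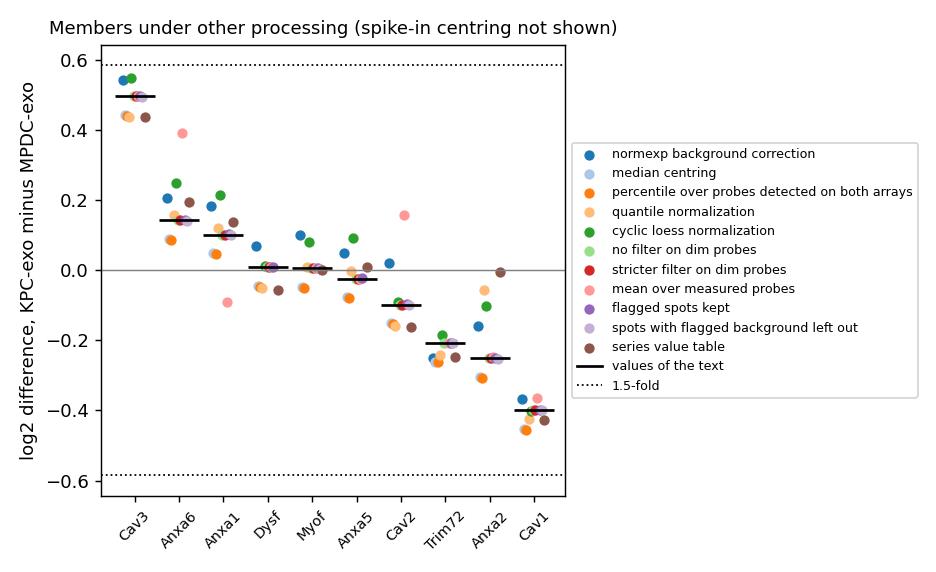
Log2 difference, KPC-exo minus MPDC-exo (y axis), of each member under each alternative processing other than spike-in centring (points) and as given in the text (black bars), with dotted lines at 1.5-fold. No point passes 1.5-fold, Cav3 lies between 0.44 and 0.55 and Cav1 between -0.45 and -0.36.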

How the data were processed

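Total RNA of 2 C2C12 cultures, 1 per group, was measured after labelling with Cy3 for 1-colour Agilent arrays, per the labels. The deposited scanner output gives the intensity of each spot, unlogged, made by the authors with Agilent Feature Extraction 10.7.1.1, per the submitters' processing notes. Per the file headers it subtracted background, removed spatial trends and replaced small values by a surrogate, with no scaling between arrays. The authors' value table holds log2 values scaled between the arrays by a step not given in the sources used here, and was used only as an alternative.

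Here the processed signal was put on the log2 scale without the spots that the scanner software flagged as uneven or as outliers among repeats (166 on the KPC-exo array and 102 on the MPDC-exo array), spots of a probe were averaged, and the 75th percentile over the probes of the array was subtracted. Each gene takes the values of its brightest probe. No spot was saturated. Of 56605 probes, 32994 matched a RefSeq accession of GRCm38.p6, which updated 1535 names. The file headers name mm9 for probe positions, and promoter sequences are on GRCm38.p6.

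Precision is limited by 1 array per group. Different measured probes of a gene had a pooled SD of 0.36 in log2 difference, over 5736 genes, and probes spotted 10 times had a median spot SD of 0.03 on each array. No test was run. Of each related list, the 3 measured genes with the largest difference whose probes had the same sign are named, and of each marker list the brightest 2. Other myoblast and macrophage markers were named after their values were seen. The members and lists were chosen with earlier results of these data known. Alternatives were normexp with an offset of 50, quantile or cyclic loess normalization, centring on the median, on probes detected on both arrays or on 7 spike-in probes, keeping dim probes or filtering them more strictly, averaging the probes of a gene, flagged spots kept or background-flagged spots left out, the authors' table, and a smaller and a larger fold threshold. The scaling and the fold calculation were tested on simulated data with 1 probe per gene, all taken as detected. The choice of the brightest probe and the detection filter were therefore not tested. Python 3.11.15, numpy 2.4.6, pandas 2.3.3, matplotlib 3.10.9, R 4.3.3 and limma 3.58.1 were used.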

Additional observations from a re-analysis of the deposited data

How the results depend on the processing

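The count of members past 1.5-fold stayed at 0 in both directions in all alternatives except 2. Centring on the 7 spike-in probes, which shifts every probe up by 1.00 on the log2 scale, put 10 members at least 1.5-fold higher and 0 lower, with a median of 0.99 beside 1.06 for all genes, so each value above is relative to the bulk of signal on its array. A threshold of 0.32 on the log2 scale counted 1 member higher, Cav3, and 1 lower, Cav1, where the background was 15.5% and 10.1%. Without spike-in centring, all 107 other values of the 10 members lay within the between-probe SD of 0.36 of the values reported. Signs changed in Cav2 (-0.16 to 0.16) and Anxa1 (-0.09 to 0.21), with the mean over probes giving 0.16 and -0.09, and in Dysf, Myof and Anxa5 (-0.08 to 0.09), whose values lie near 0. With background-flagged spots left out, Dysf and Anxa5 had no value, and neither did the exon-crossing Anxa2 probe. With the stricter filter Trim72 had none. With no filter on dim probes the median of all genes was -0.15, so 7 members lay above it and 3 below. The signal above background limits Trim72 and the 7 probes not detected on both arrays. No replicate could be left out with 1 array per group. No paired analysis was possible because each group has 1 array.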
